A study of Homo sapiens with 15 samples.

Results

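Matrix metalloproteinases (MMPs), ADAM and ADAMTS proteases and their tissue inhibitors (TIMPs) were examined in MRC5 human lung fibroblasts and in H196 small cell lung cancer (SCLC) cells. Members were the genes whose symbols are MMP, ADAM or ADAMTS followed by a number, or TIMP1 to TIMP4, in the table of either cell line. The rule gave 60 of 17138 genes, namely 22 MMPs, 15 ADAMs, 19 ADAMTSs and 4 TIMPs. Of these, 57 were listed for MRC5, 51 for H196 and 48 for both.

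MRC5 cells had been cultured alone (MRC5_Mo), with H69 cells, a neuroendocrine (NE) SCLC line (MRC5_coH69), or with H196 cells, a non-NE SCLC line (MRC5_coH196). H196 cells had been cultured alone (H196_Mo) or with MRC5 cells (H196_Co). Co-culture lasted 7 days across a transwell membrane of 0.4 µm pores, so that medium but not cells was shared, and the labels name no other treatment and no genetic change. The paper describes RPMI for SCLC cells and MEM for MRC5 cells and does not name the medium of the co-cultures. Between co-culture and culture alone, the partner and a change of medium thus cannot be told apart. Each of the 5 groups had 3 mRNA libraries, 15 in all, and each cell type is 1 line. H69 cells were not analysed here. The labels do not say that the 3 libraries came from separate experiments, so p-values measure the spread between these libraries, which may be technical.

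Library totals ran from 16073597 to 19170560 counts. For a gene at 0 the upper limit is 3 counts, between 0.156 and 0.187 CPM (counts scaled to a common library size), for counting error only. All 10 fibroblast markers were detected in every MRC5 library, and their summed level was 1.31e+04 to 1.38e+04 CPM in MRC5_coH196 against 2.75e+04 to 3.05e+04 CPM in MRC5_Mo cells. In H196_Mo cells the same markers summed to 45.1 to 46.4 CPM, with COL1A2, COL3A1, LUM, THY1 and FAP at 3 counts or fewer. The part of the lower marker level in the differences between MRC5 groups was not tested. The 95 genes that were high in H196 and almost absent from MRC5_Mo cells were chosen for that low level. They summed to 8.97 to 9.92 CPM in MRC5_Mo, 8.36 to 10.4 CPM in MRC5_coH69 and 23.7 to 61.8 CPM in MRC5_coH196 libraries. The last was at most 0.79% of their mean sum in H196_Co cells. Reads from H196 cells and a rise within MRC5 cells cannot be told apart there. In bulk RNA, fewer cells of a type and less RNA per cell cannot be told apart.

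MMPs are zinc-dependent proteases that cut collagens and other matrix proteins, and many are secreted as inactive precursors. ADAM proteases mostly sit in the membrane and shed the extracellular parts of receptors and growth factors, whereas ADAMTS proteases are secreted and cut proteoglycans, procollagens and other matrix proteins. TIMPs bind the active sites of MMPs, and TIMP3 also inhibits several ADAM and ADAMTS proteases. Fibroblasts are a major source of both the enzymes and the inhibitors in lung tissue.

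Promoter sequences are shown for 4 members that the results turn on, because TIMP1 was the most abundant member, TIMP3 was read almost only from MRC5 cells, and the response of MMP14 and MMP11 to co-culture differed between the cell lines. They were taken from RefSeq on GRCh38.p14, where 36 of the 60 members had an entry, and run 5′ to 3′ on the plus strand, as all 4 genes lie on it. Each starts 250 bases before the RefSeq start and stops where a GENCODE release 29 transcript of the gene begins. Capitals mark ACGTG or GCGTG, the cores of the hypoxia response element, on either strand. The windows are chrX:47582186-47582312 for TIMP1, chr22:32801455-32801700 for TIMP3, chr14:22836335-22836556 for MMP14 and chr22:23772599-23772818 for MMP11.
TIMP1: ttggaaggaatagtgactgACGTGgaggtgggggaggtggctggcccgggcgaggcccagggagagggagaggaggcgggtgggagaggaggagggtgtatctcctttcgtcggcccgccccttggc
TIMP3: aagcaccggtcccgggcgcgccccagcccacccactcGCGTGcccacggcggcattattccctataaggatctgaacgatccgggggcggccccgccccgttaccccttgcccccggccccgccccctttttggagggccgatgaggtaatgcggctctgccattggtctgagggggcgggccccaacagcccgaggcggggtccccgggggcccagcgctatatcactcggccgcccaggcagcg
MMP14: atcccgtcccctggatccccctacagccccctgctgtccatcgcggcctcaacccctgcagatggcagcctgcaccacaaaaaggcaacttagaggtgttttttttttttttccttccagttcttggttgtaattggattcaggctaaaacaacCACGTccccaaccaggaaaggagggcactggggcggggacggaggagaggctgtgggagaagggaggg
MMP11: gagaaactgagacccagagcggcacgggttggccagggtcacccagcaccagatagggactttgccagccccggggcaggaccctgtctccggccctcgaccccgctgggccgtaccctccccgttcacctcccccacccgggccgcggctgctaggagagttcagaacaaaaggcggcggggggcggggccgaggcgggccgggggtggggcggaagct
In the stretches shown, TIMP1 held ACGTG at base -231, TIMP3 held GCGTG at -213, MMP14 held ACGTG on the other strand at -96, and MMP11 held neither. The full window of 250 bases held 2 motif matches for TIMP1, of which 1 lies in the stretch shown. In windows of 250 bases, ACGTG was found in 18.5% and GCGTG in 32.2% of all 35116 promoters, and in 29.7% and 32.4% of the 37 promoters of members. The AP-1 motif TGAGTCA, whose reverse strand reads TGACTCA, was in 4.2% of all promoters and in 1 of the 37. Both strands were searched, and ACGTG matches on opposite strands overlap in CACGTG. A match is a description of the letters and not a binding site.

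TIMP1 was the most abundant member per length in both cell lines. FPKM values (fragments per kilobase of transcript, scaled to library size) allow levels of different genes to be compared. In MRC5_Mo cells TIMP1, an inhibitor of MMPs, made up 50% of the summed FPKM of all members. Its level was 1550.2, 1473.9 and 1421.1 FPKM in the 3 libraries. TIMP2 followed with 318 ± 4.97 FPKM (SD, n = 3), ahead of MMP2, the gelatinase that cuts type IV collagen, with 228 ± 12.7 FPKM. MMP14, the membrane-type protease that activates proMMP2 with the help of TIMP2, had 211 ± 6.02 FPKM, so that the ranges of MMP2 and MMP14 nearly met, at 216.8 FPKM for the lowest MMP2 and 215.3 FPKM for the highest MMP14 library. ADAM9, a widely expressed membrane protease, had 184 ± 3.61 FPKM. The order of these 5 genes was the same in MRC5_coH69 cells, and ADAM9 stood above MMP14 in MRC5_coH196 cells with 211 ± 14 against 192 ± 3.07 FPKM. Of the 57 listed members, 30 reached 1 FPKM in MRC5_Mo, 30 in MRC5_coH69 and 29 in MRC5_coH196 cells.

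H196_Mo cells had another order, with ADAM9 as the leading protease. TIMP1 again led with 347.1, 387.6 and 413.4 FPKM, which was 55.2% of the summed member FPKM. ADAM9 followed with 90.8 ± 3.78 FPKM, then TIMP2 with 53.1 ± 0.972 FPKM and MMP14 with 36.0 ± 1.29 FPKM. ADAM15 and ADAM10, the sheddase of Notch and other receptors, had 30.0 ± 1.88 and 28.8 ± 2.48 FPKM and overlapped. Only 18 of 51 listed members reached 1 FPKM.

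The direct comparison of MRC5_Mo with H196_Mo cells used the deposited counts of both tables in 1 model. Cell line, deposited table and culture medium cannot be told apart there, as the paper describes RPMI for SCLC cells and MEM for MRC5 cells. A member was called where edgeR's quasi-likelihood test gave a Benjamini-Hochberg adjusted p under 0.05 over all tested genes and the absolute log2 fold change (log2FC) exceeded 0.58. Of 41 members tested, 25 were higher in MRC5_Mo cells, where 30.2% of all 13578 genes were, and 11 were lower, where 31.5% were. The median log2FC of the members was 1.88, against -0.03 over all genes, and it was 1.88 again with TIMP3 and MMP13 set at their bounds. On log2(FPKM + 1) the median was 0.68 for the members and -0.34 for all genes, and on log2(FPKM + 0.1) the members had 1.35. Of the called members, 9 of the 25 higher and 6 of the 11 lower passed the low-count filter only through their higher line. TIMP3, ADAMTS2, ADAM22, MMP9 and MMP13 are among them. A member of this kind had to differ, so these counts, medians and single values describe the lines and support nothing further.

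TIMP3 separated the lines most. It had 7198, 7338 and 7130 counts in MRC5_Mo cells, and 0 in each H196_Mo library and 0, 1 and 0 in H196_Co cells. Against 3 counts per library it was at least 2174-fold higher in MRC5_Mo cells. MMP2 had 14581, 13604 and 12941 counts against 20, 30 and 36, a log2FC of 9.19 (SE, the standard error, 0.099, adjusted p = 1.31e-32). ADAMTS1, a proteoglycan-cutting protease, had a log2FC of 9.21. ADAMTS2, the main procollagen I N-proteinase, had a log2FC of 10.14 on at most 12 counts in an H196 library. It passed the filter only through MRC5 cells, so its value is a description. MMP1, the interstitial collagenase, had 93.1 ± 3.93 against 2.48 ± 0.321 FPKM and a log2FC of 5.67.

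Members that were higher in H196_Mo cells were fewer and mostly of low level. ADAM22, a neuronal member without protease activity, had 10.7 ± 0.678 against 0.06 ± 0.02 FPKM, a log2FC of -7.84 for MRC5_Mo against H196_Mo cells. It passed the filter only through H196 cells, with at most 8 counts in an MRC5 library, so its value is a description. ADAMTS3, a procollagen II N-proteinase that also activates VEGF-C, had 5.09 ± 0.525 against 0.44 ± 0.0557 FPKM (log2FC -3.05). ADAM17, the sheddase of TNF and EGF-receptor ligands, had 19.3 ± 0.579 against 6.58 ± 0.0557 FPKM (log2FC -1.11). MMP13, a collagenase, had 30, 21 and 24 counts against 0 in all MRC5_Mo libraries and was at least 9.28-fold higher in H196_Mo cells. MMP9, the other gelatinase, had 63 counts in all against 2, a ratio of 34.8 with a 95% interval of 9.25 to 294 from the counts. Of the members tested, ADAM8, ADAM15, ADAM21, ADAMTS6 and MMP11 were not called in either direction.

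Members differed in both directions between MRC5_coH196 and MRC5_Mo cells, and 1 differed between MRC5_coH69 and MRC5_Mo cells. Of 42 members tested in MRC5 cells, 8 were called higher in MRC5_coH196 than in MRC5_Mo cells, where 17.2% of all 12819 genes were, and 7 were called lower, where 14.7% were. The 8 include MMP12, which passed the filter on low counts only through the MRC5_coH196 libraries, so that 7 remain without it. In MRC5_coH69 cells 1 member was called higher, with 0.421% of all genes, and 0 lower, with 0.133%. At an unadjusted p under 0.05, edgeR gave 14 of the 42 members and 2574 of the 12819 genes there, and DESeq2 also called 1 higher and 0 lower. Between MRC5_coH196 and MRC5_coH69 cells 8 members were higher and 7 lower, where 15.2% and 13.1% of all genes were. Of these 8, MMP12 and ADAM11 passed the filter only through the MRC5_coH196 libraries, which leaves 6. In H196 cells 2 of 32 tested members were higher in H196_Co than in H196_Mo cells and 0 lower, where 3.26% and 0.601% of all 12806 genes were. By edgeR 8 members and 4294 of the 12806 genes had an unadjusted p under 0.05 there, and DESeq2 also called 2 higher and 0 lower. The member shares in MRC5_coH196 cells were thus near those of all genes. Both MRC5 co-cultures were compared with the same MRC5_Mo libraries.

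The members called in MRC5_coH196 cells were all of low level. Taking the higher of the 2 group means, the 15 called members had 0.433 to 4.44 FPKM, with a median of 1.27. None of the 13 members of at least 25 FPKM was called, and their log2FCs ran from -0.21 to 0.49, with 12 of 13 above 0. The shares of all genes called above and below 25 FPKM were not determined. Whether calls at low level are particular to the members was therefore not tested. By mean FPKM 9 of these 13 were higher in MRC5_coH196 cells and ADAM15, ADAMTS1, MMP14 and MMP19 were lower. By adjusted p alone 23 of the 42 members were higher and 13 lower, where 4765 and 4757 of the 12819 genes were. The scale mattered as well. On log2(FPKM + 1) the median of all genes moved to -0.13, and MMP12, ADAMTS10, ADAMTS14 and MMP15 alone were still called. On log2(FPKM + 0.1) the median of all genes was -0.18, and 14 members were called, 6 higher and 8 lower. Of all genes, 915 were called higher and 2082 lower on log2(FPKM + 1). Against MRC5_coH69 cells, 6 members were called higher and 9 lower on log2(FPKM + 0.1).

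**Figure D1:**
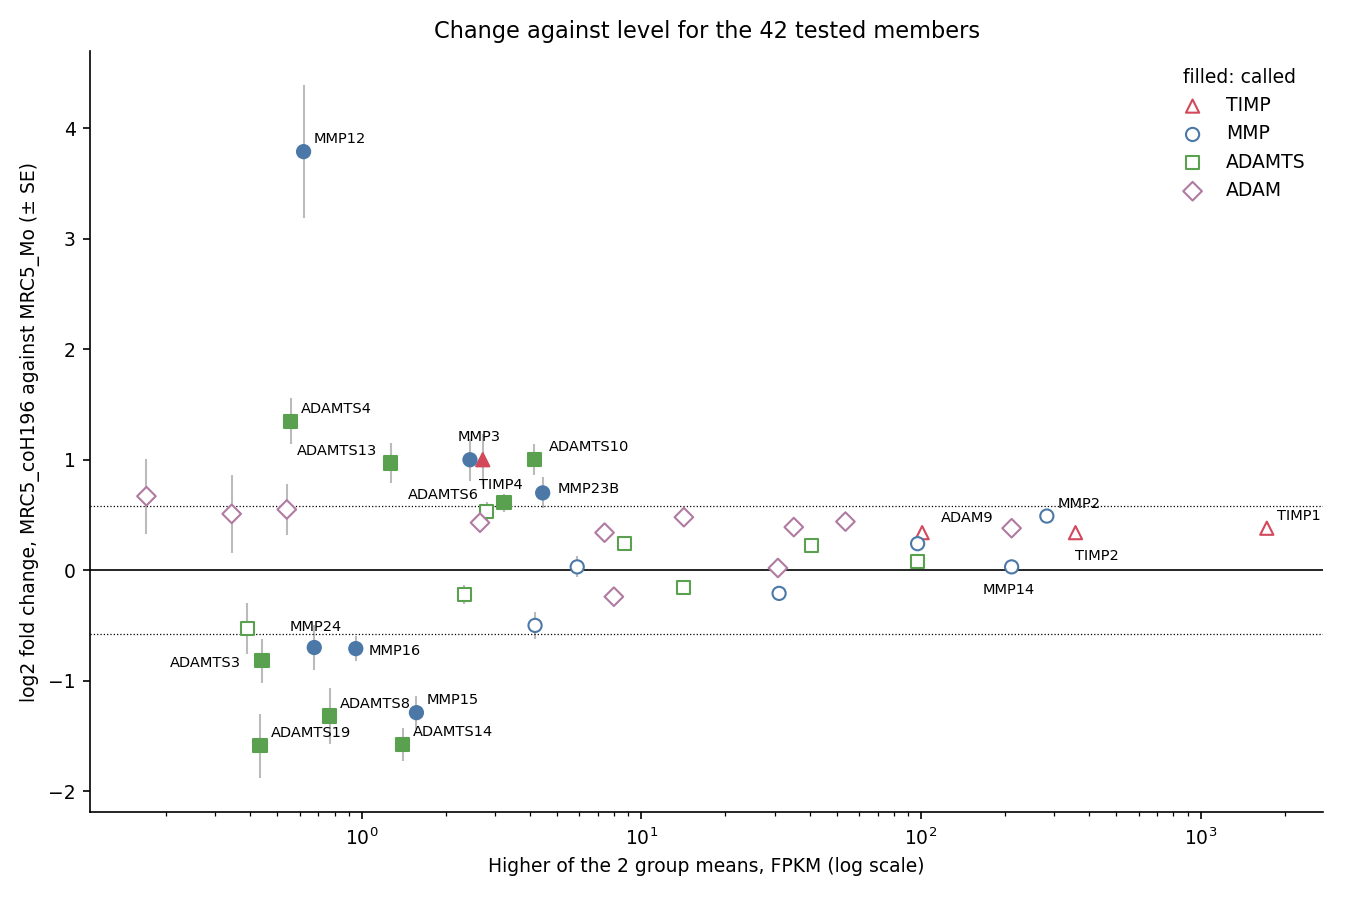
Log2FC of the 42 tested members in MRC5_coH196 against MRC5_Mo cells (y axis, bars show the standard error) against the higher of both group means in FPKM (x axis, log scale). Filled symbols are called members, which all lie at or below 4.44 FPKM, while the abundant TIMP1, TIMP2, MMP2 and MMP14 lie between the dotted lines at a log2FC of 0.58 and -0.58.

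All 4 TIMPs were higher in MRC5_coH196 than in MRC5_Mo cells by adjusted p, as were 4765 of all 12819 genes. TIMP4 alone passed the fold change limit, where 17.2% of all genes were called higher. TIMP1 had 1793.8, 1594.2 and 1788.2 FPKM against 1550.2, 1473.9 and 1421.1 FPKM, with no overlap between the groups. Its log2FC was 0.38 (SE 0.051, adjusted p = 2.67e-07). TIMP2 had 357 ± 7.39 against 318 ± 4.97 FPKM, with a log2FC of 0.34 (SE 0.038, adjusted p = 1.15e-08). TIMP3, which is held in the matrix, had 101 ± 1.36 against 89.4 ± 0.85 FPKM, also with a log2FC of 0.34 (SE 0.042, adjusted p = 8.01e-08). TIMP4, the least abundant of the family, had 49, 47 and 44 counts against 19, 25 and 34, and 2.71 ± 0.153 against 1.52 ± 0.448 FPKM. It rose by a log2FC of 1.0 (SE 0.23, adjusted p = 0.000454). The direction of all 4 held on both FPKM scales, with a median log2FC of 0.19 there against 0.36 on counts.

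With H69 as the partner, TIMP3 was higher by adjusted p, as were 484 of all 12819 genes. It had 108.9, 102.6 and 99.5 FPKM in MRC5_coH69 cells, above all 3 MRC5_Mo libraries, with a log2FC of 0.23 (SE 0.042, adjusted p = 0.00117), under the limit. TIMP1, TIMP2 and TIMP4 had log2FCs of 0.05, 0.02 and -0.05 with adjusted p of 0.647, 0.829 and 0.947. TIMP4 was higher in MRC5_coH196 than in MRC5_coH69 cells by a log2FC of 1.05 (SE 0.23, adjusted p = 0.000323). In H196 cells TIMP1 had 409 ± 27.9 FPKM in co-culture and 383 ± 33.4 FPKM alone, and the libraries overlapped (log2FC 0.18, SE 0.082, adjusted p = 0.12). TIMP2 had a log2FC of 0.05 there, which was -0.03 on the FPKM scales.

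**Figure D2:**
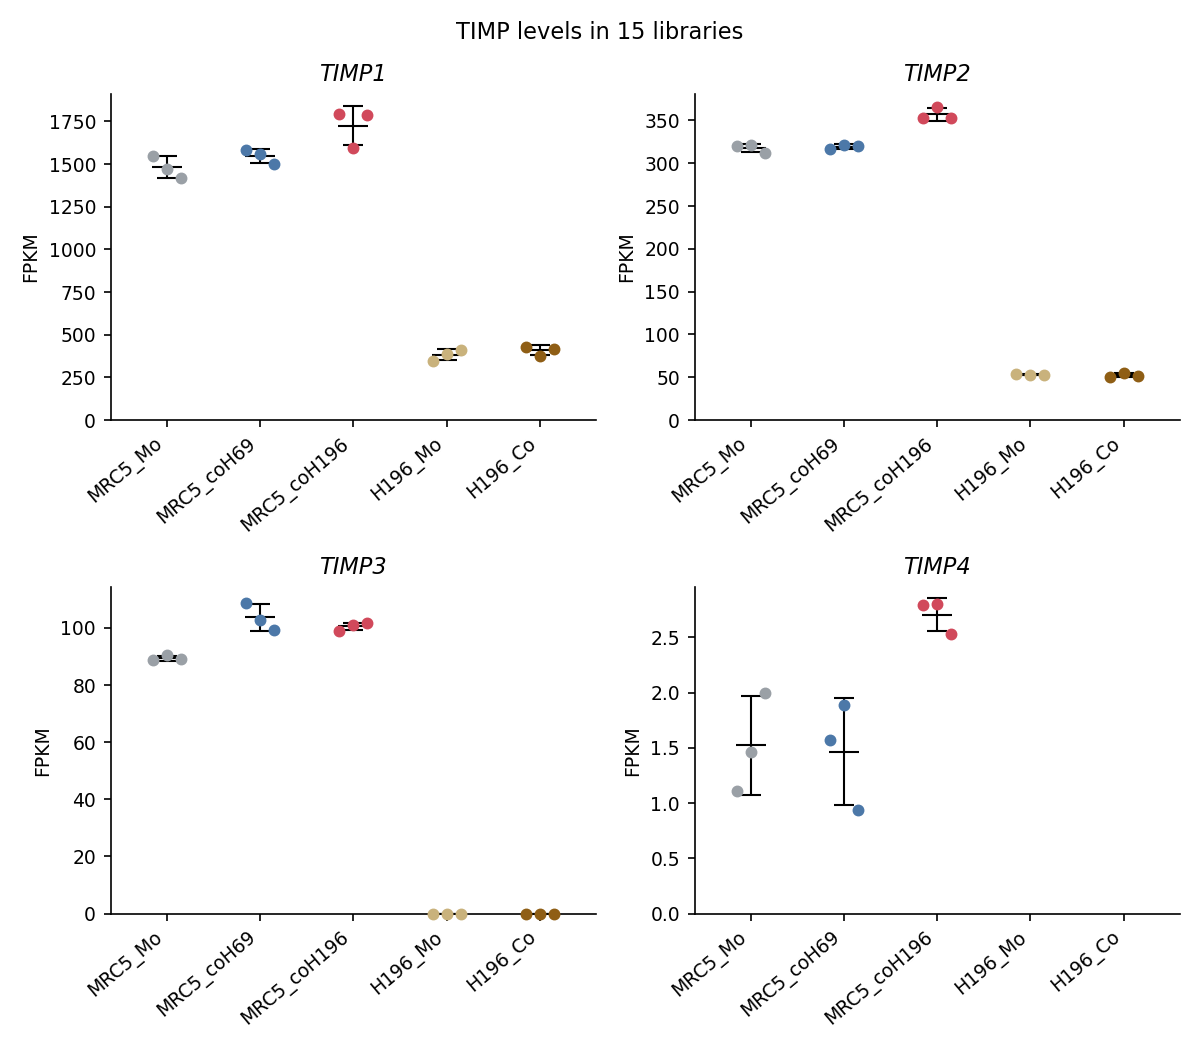
FPKM of the 4 TIMPs in each of the 15 libraries (points), with the mean and SD per group (black). All axes start at 0. TIMP1, TIMP2 and TIMP4 are highest in the 3 MRC5_coH196 libraries, and TIMP3 lies at 0 to 0.01 FPKM in H196 cells, for which TIMP4 is not plotted.

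Among the MMPs of MRC5 cells, 3 of 12 tested were called higher and 3 lower with H196 as the partner, where 17.2% and 14.7% of all genes were. MMP12, the macrophage elastase, is 1 of the 3 higher. It had 18, 21 and 15 counts in MRC5_coH196 cells, against 0, 4 and 0 in MRC5_Mo and 0, 2 and 2 in MRC5_coH69 cells. The ratio of summed counts was 13.3 against MRC5_Mo cells, with a 95% interval of 4.92 to 50.7 for counting error only. A gene that passes the filter only through its higher group had to differ, so this value is a description. MMP12 was at 0.62 ± 0.115 FPKM even there.

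MMP3, stromelysin-1, which cuts proteoglycans and activates other proMMPs, had 2.33, 2.61 and 2.38 FPKM in MRC5_coH196 cells against 1.66, 1.49 and 0.98 FPKM in MRC5_Mo cells. The groups did not overlap, and the log2FC was 1.0 (SE 0.19, adjusted p = 3.41e-05). MMP23B rose from 3.07 ± 0.123 to 4.44 ± 0.146 FPKM, a log2FC of 0.70 (SE 0.14, adjusted p = 8.56e-05). MMP10, the close paralogue of MMP3, had at most 3 counts in any MRC5 library and was not tested.

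The MMPs that fell were 3 of the membrane-type MMPs, which are anchored at the cell surface. MMP15 had 0.48, 0.59 and 0.64 FPKM in MRC5_coH196 against 1.56, 1.62 and 1.54 FPKM in MRC5_Mo cells, and MRC5_coH69 cells lay between them with 1.13, 1.28 and 1.09 FPKM. It fell by 1.29 on the log2 scale with H196 as the partner (SE 0.15, adjusted p = 2.11e-08). In MRC5_coH69 cells its log2FC was -0.42, under the limit (SE 0.13, adjusted p = 0.0478). MMP16 had 106, 113 and 111 counts in MRC5_coH196 against 177, 206 and 220 in MRC5_Mo cells and a log2FC of -0.71 (SE 0.11, adjusted p = 2.63e-06). MMP24 had 26, 25 and 34 counts against 60, 50 and 44, with a log2FC of -0.70 (SE 0.2, adjusted p = 0.00279), and -0.57, under the limit, without MRC5_Mo replicate 1.

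MMP14 was not called in MRC5 cells. Its level was 194.3, 188.3 and 192.2 FPKM in MRC5_coH196 against 204.1, 215.3 and 213.6 FPKM in MRC5_Mo cells, yet its log2FC on scaled counts was 0.03 (SE 0.044, adjusted p = 0.486). On the FPKM scales it was -0.14, close to the median of all genes there, so no direction is given. MMP17, also of the membrane type, had a log2FC of 0.03 (adjusted p = 0.794).

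The abundant secreted MMPs moved less than the limit. MMP2 had 282.4, 271.9 and 292.2 FPKM in MRC5_coH196 cells, all above the 241.8, 225.3 and 216.8 FPKM of MRC5_Mo cells, and a log2FC of 0.49 (SE 0.045, adjusted p = 5.09e-10). MMP1 had a log2FC of 0.24 (adjusted p = 0.000107) and MMP19, a basement-membrane protease, of -0.21 (adjusted p = 0.000624). MMP11, stromelysin-3, which fibroblasts of tumours are known to express, had 2.61 ± 0.345 FPKM in MRC5_coH196, 4.17 ± 0.215 FPKM in MRC5_Mo and 4.53 ± 0.464 FPKM in MRC5_coH69 cells. Its log2FC was -0.50 against MRC5_Mo (adjusted p = 0.000665) and -0.63 against MRC5_coH69 cells (SE 0.12, adjusted p = 4.93e-05). The latter was -0.52 without MRC5_coH196 replicate 2 and -0.55 without MRC5_coH69 replicate 1, both under the limit. In all, 6 of 12 tested MMPs were not called in MRC5_coH196 against MRC5_Mo cells.

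ADAM genes of MRC5 cells changed by small amounts. None of the 11 tested was called in MRC5_coH196 against MRC5_Mo cells, where 17.2% of all genes were called higher and 14.7% lower. By adjusted p alone 7 of the 11 were higher and 1 lower. Of all 12819 genes, 4765 were higher and 4757 lower by adjusted p. The median log2FC of the ADAMs was 0.43 against -0.00 over all genes. On log2(FPKM + 1) the median of the ADAMs was 0.12, with 4 higher and 2 lower. ADAM10 had 53.7 ± 3.51 against 45.3 ± 1.85 FPKM and a log2FC of 0.44 (SE 0.048, adjusted p = 8.67e-09). ADAM9 had 196.4, 224.0 and 214.0 FPKM against 187.3, 183.6 and 180.1 FPKM and a log2FC of 0.38 (SE 0.043, adjusted p = 1.95e-08). ADAM15 had 0.02 (adjusted p = 0.666), which was -0.15 on the FPKM scales. ADAM23, a member without protease activity that is known from neurons, was the ADAM that was lower, with a log2FC of -0.24 (adjusted p = 0.00115).

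ADAM19, which sheds neuregulins, was the member called with H69 as the partner. It had 46.8, 46.6 and 39.3 FPKM in MRC5_coH69, 29.1, 30.3 and 31.3 FPKM in MRC5_Mo and 35.0, 35.3 and 35.2 FPKM in MRC5_coH196 cells. The 3 groups did not overlap. Its log2FC in MRC5_coH69 cells was 0.59 (SE 0.055, adjusted p = 6.07e-08), just past the limit, and 0.55 to 0.56 without MRC5_coH69 replicate 1, MRC5_coH69 replicate 2 or MRC5_Mo replicate 1. In MRC5_coH196 cells it was 0.39 (SE 0.055, adjusted p = 6.28e-07).

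ADAM11, another member without protease activity, was higher in MRC5_coH196 than in MRC5_coH69 cells on very few counts. It had 16, 10 and 17 counts against 7, 8 and 8, with a log2FC of 1.04 (SE 0.36, adjusted p = 0.012), which is a description for the reason given for MMP12. The call was lost with DESeq2 and without MRC5_coH196 replicate 3 (log2FC 0.91). H196_Co cells had 289 to 343 ADAM11 counts. The 95 genes high in H196 and almost absent from MRC5_Mo cells summed in MRC5_coH196 libraries to 0.3% to 0.79% of their H196_Co level. In the other MRC5 libraries they summed to 0.11% to 0.13% of it. The part of reads from H196 cells in the ADAM11 difference was not tested.

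Of 15 tested ADAMTSs, 4 were called higher and 4 lower in MRC5_coH196 against MRC5_Mo cells, where 17.2% and 14.7% of all genes were. ADAMTS4, an aggrecanase, had 0.6, 0.49 and 0.58 FPKM against 0.33, 0.26 and 0.29 FPKM. It rose by a log2FC of 1.35 (SE 0.21, adjusted p = 3.28e-06). ADAMTS10, which binds fibrillin microfibrils, had 4.47, 3.89 and 4.08 FPKM against 3.0, 2.47 and 1.53 FPKM and a log2FC of 1.0 (SE 0.14, adjusted p = 4.51e-07). The spread of ADAMTS10 was wide in MRC5_Mo cells, but no library of 1 group reached the other.

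ADAMTS13, which cuts von Willebrand factor, had 79, 96 and 84 counts in MRC5_coH196 against 67, 46 and 34 in MRC5_Mo cells. Its log2FC was 0.97 (SE 0.18, adjusted p = 3.51e-05), while the FPKM of 0.99, 1.5 and 1.31 against 1.05, 0.75 and 0.54 overlapped by 1 library. H196_Co cells had 156 to 169 ADAMTS13 counts, and the part of reads from H196 cells was not tested. ADAMTS6, a relative of ADAMTS10, had a log2FC of 0.61 (SE 0.084, adjusted p = 4.95e-07), and 0.56, under the limit, without MRC5_coH196 replicate 3. These 4 genes were also higher in MRC5_coH196 than in MRC5_coH69 cells, with log2FCs of 1.05 for ADAMTS4, 0.86 for ADAMTS10, 1.06 for ADAMTS13 and 0.64 for ADAMTS6. Without MRC5_coH69 replicate 2 the value of ADAMTS6 was 0.54.

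Of the procollagen N-proteinases, which trim the amino ends of fibrillar procollagens, 2 of 3 fell, where 14.7% of all genes were called lower. ADAMTS14 had 0.39, 0.5 and 0.45 FPKM in MRC5_coH196 cells, against 1.44, 1.33 and 1.44 FPKM in MRC5_Mo and 1.35, 1.34 and 1.67 FPKM in MRC5_coH69 cells. It fell by 1.58 on the log2 scale against MRC5_Mo cells (SE 0.15, adjusted p = 9.19e-10). ADAMTS3 had 0.23 ± 0.0458 against 0.44 ± 0.0557 FPKM and a log2FC of -0.82 (SE 0.2, adjusted p = 0.000813). ADAMTS2, by far the most abundant of the 3 genes with 40.5 ± 1.75 against 37.3 ± 0.911 FPKM, had a log2FC of 0.22 (SE 0.044, adjusted p = 9.88e-05). The 3 genes thus did not move together.

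ADAMTS19 and ADAMTS8 fell as well. ADAMTS19 had 13, 6 and 16 counts in MRC5_coH196 against 46, 43 and 29 in MRC5_Mo cells and a log2FC of -1.59 (SE 0.29, adjusted p = 2.21e-05). ADAMTS8, a protease known from lung and heart, had 17, 19 and 16 counts against 65, 46 and 34 and a log2FC of -1.32 (SE 0.25, adjusted p = 3.63e-05). For both genes each MRC5_coH196 library lay below each MRC5_Mo library. ADAMTS9, a versican-cutting protease, was called lower against MRC5_coH69 cells alone, with a log2FC of -0.66 (SE 0.22, adjusted p = 0.0114) that was -0.52 without MRC5_coH196 replicate 3 and -0.57 without MRC5_coH69 replicate 3.

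In MRC5_coH69 against MRC5_Mo cells ADAMTS2, ADAMTS5, ADAMTS7 and ADAMTS12 were higher by adjusted p, under the limit, with log2FCs of 0.25, 0.32, 0.34 and 0.30. They were 4 of 15 tested ADAMTSs, where 484 of all 12819 genes were higher by adjusted p. In MRC5_coH196 cells the log2FCs of ADAMTS5, an aggrecanase, and ADAMTS12 were -0.22 and -0.16. Both genes were lower in MRC5_coH196 than in MRC5_coH69 cells, with log2FCs of -0.54 (adjusted p = 4.36e-06) and -0.46 (adjusted p = 1.18e-08), under the limit. Of the 15 MRC5 members that were not tested, none exceeded 8 counts in a library, and of the 19 in H196 cells none exceeded 12. ADAMTS20 was at 4, 5 and 3 counts in MRC5_coH196 and at 0 in the 6 other MRC5 libraries, which is at least 1.32-fold against 3 counts.

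**Figure D3:**
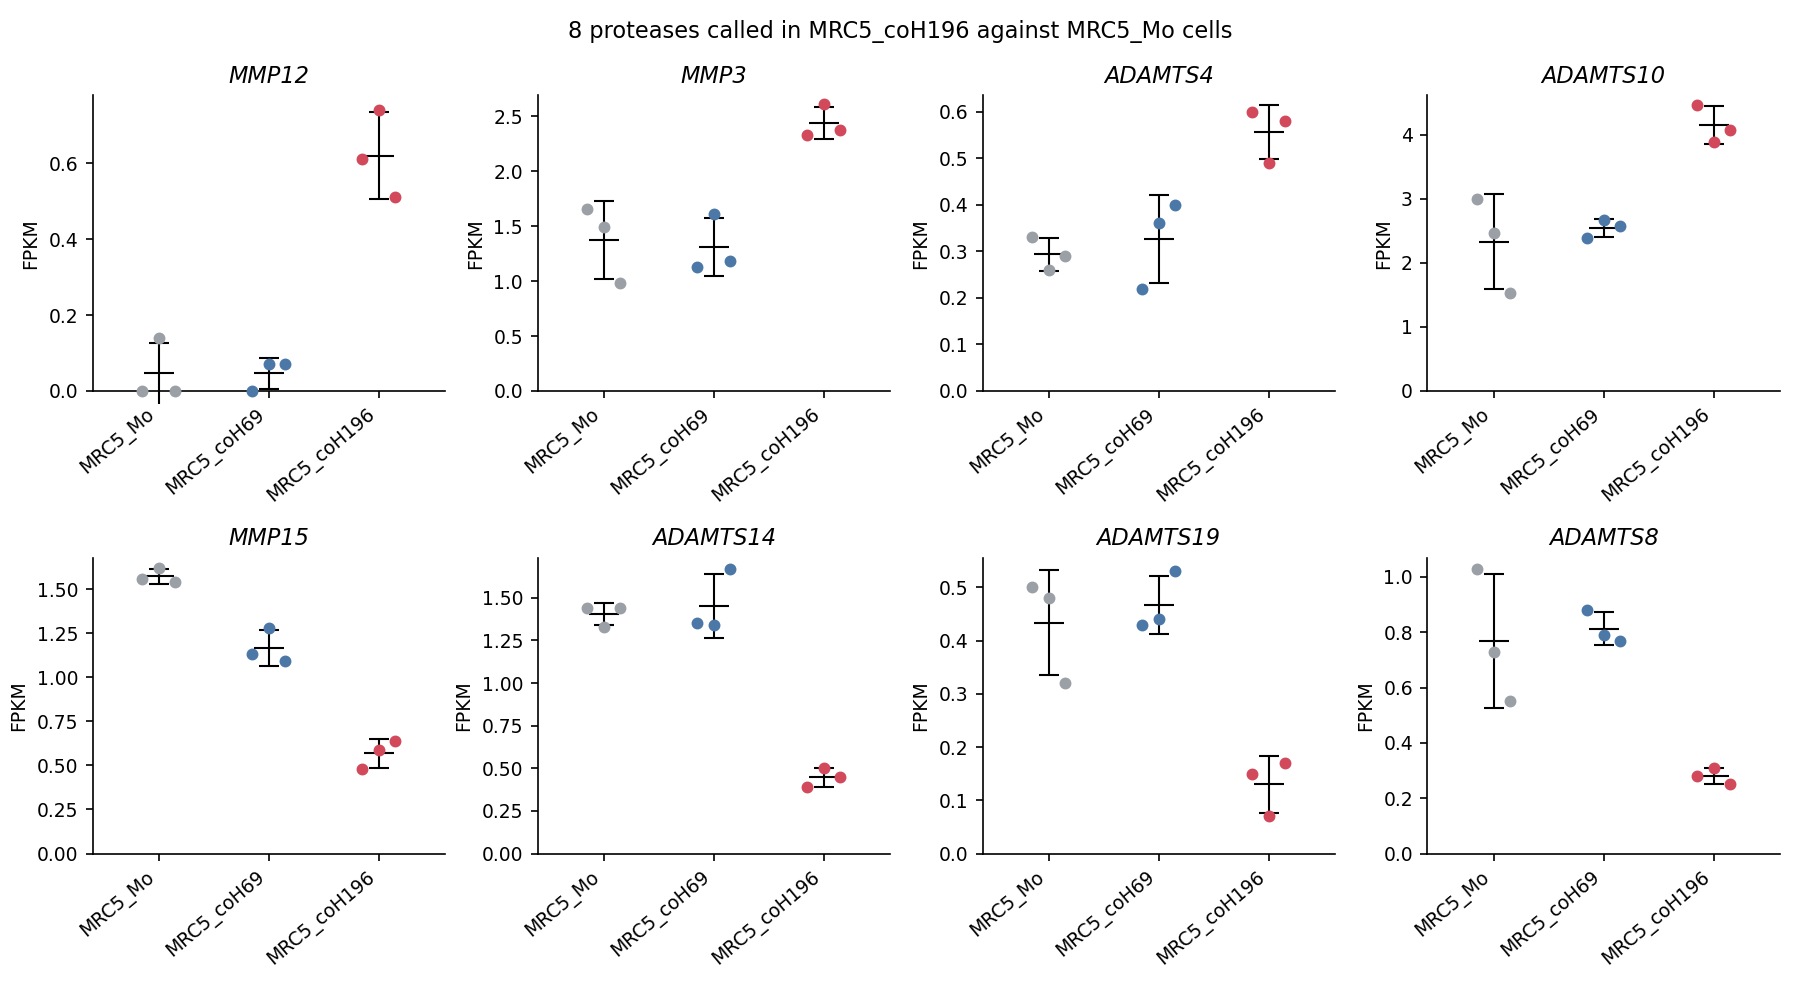
FPKM of 8 called proteases in each MRC5 library (points) with the mean and SD per group (black). The top row was called higher and the bottom row lower in MRC5_coH196 cells. MRC5_coH69 libraries overlap with MRC5_Mo libraries except for MMP15, with 1.09 to 1.28 against 1.54 to 1.62 FPKM.

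In H196 cells the members called were 2 membrane-type MMPs. MMP14 had 54.8, 58.8 and 51.8 FPKM in H196_Co against 34.9, 37.5 and 35.7 FPKM in H196_Mo cells. It rose by a log2FC of 0.69 (SE 0.071, adjusted p = 7.28e-07). MMP15 had 61, 85 and 56 counts against 42, 39 and 36, a log2FC of 0.85 (SE 0.19, adjusted p = 0.00361), and 0.34 on log2(FPKM + 1). Neither gene's groups overlapped. MMP17 also had a positive value of 0.54 under the limit (SE 0.15, adjusted p = 0.0161), while MMP16 had -0.15 (adjusted p = 0.215).

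The other tested H196 members were not called, and on log2(FPKM + 0.1) 2 were called higher and 1 lower. ADAM15, which binds integrins, had 37.5, 34.6 and 36.25 against 27.9, 31.4 and 30.8 FPKM and a log2FC of 0.34 (SE 0.077, adjusted p = 0.00398). ADAMTS3 had 3.73 ± 0.454 against 5.09 ± 0.525 FPKM and a log2FC of -0.37 (SE 0.095, adjusted p = 0.00938). ADAM9 had -0.12 (adjusted p = 0.252) and ADAM10 -0.10 (adjusted p = 0.373). ADAMTS12 had a log2FC of -0.71 (SE 0.39, adjusted p = 0.204). MMP10, which was not tested, had 2, 3 and 1 counts in H196_Co against 9, 4 and 7 in H196_Mo cells, a ratio of 3.35 in favour of H196_Mo with a 95% interval of 1.297 to 10.2 from the counts. The 95 H196-high genes summed to 7805 to 7997 CPM in H196_Co and 7747 to 8033 CPM in H196_Mo cells, and 195 genes high in MRC5 and almost absent from H196_Mo cells, 142 of them listed in the H196 table, summed to 17.2 to 19 CPM in H196_Co and 13.5 to 15 CPM in H196_Mo cells. TIMP3 had 1 count in all H196_Co libraries.

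The response to the partner was compared between the cell lines with the difference between both log2FCs, MRC5_coH196 against MRC5_Mo minus H196_Co against H196_Mo, in 1 model over all 15 libraries. Of 41 members tested, 1 was higher for MRC5, where 12.1% of all 13578 genes were, and 5 were lower, where 12.6% were. With DESeq2's size factors 2 were higher and 3 lower. MMP15 had the firmest difference, -2.17 (SE 0.24, adjusted p = 2.3e-08), with log2FCs of -1.29 in MRC5 and 0.85 in H196 cells. MMP14 had a difference of -0.68 (SE 0.08, adjusted p = 5.81e-08), with log2FCs of 0.03 in MRC5 and 0.69 in H196 cells. MMP11 had -0.79 (SE 0.17, adjusted p = 0.000353), with log2FCs of -0.50 in MRC5 and 0.26 (adjusted p = 0.137) in H196 cells. ADAMTS13 had 1.04 (SE 0.21, adjusted p = 0.00017), with 0.97 in MRC5 and -0.09 (adjusted p = 0.59) in H196 cells.

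The remaining differences were less firm. MMP16 had -0.59 (SE 0.14, adjusted p = 0.000803), at the limit. It lost the call in 7 fits that left out 1 library, with values of -0.50 to -0.58, and with DESeq2 (-0.54). ADAMTS8 had -2.52 (SE 1.1, adjusted p = 0.0475), with 1, 2 and 0 counts in H196_Mo and 5, 0 and 2 in H196_Co cells, and lost the call in 12 of the 15 fits without 1 library. Of the TIMPs, TIMP2 had a difference of 0.26 (SE 0.067, adjusted p = 0.0018), under the limit, and TIMP1 of 0.17 (SE 0.1, adjusted p = 0.157). ADAM9 and ADAM10 had differences of 0.47 and 0.51 under the limit (adjusted p = 1.63e-05 and 1.17e-05).

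**Figure D4:**
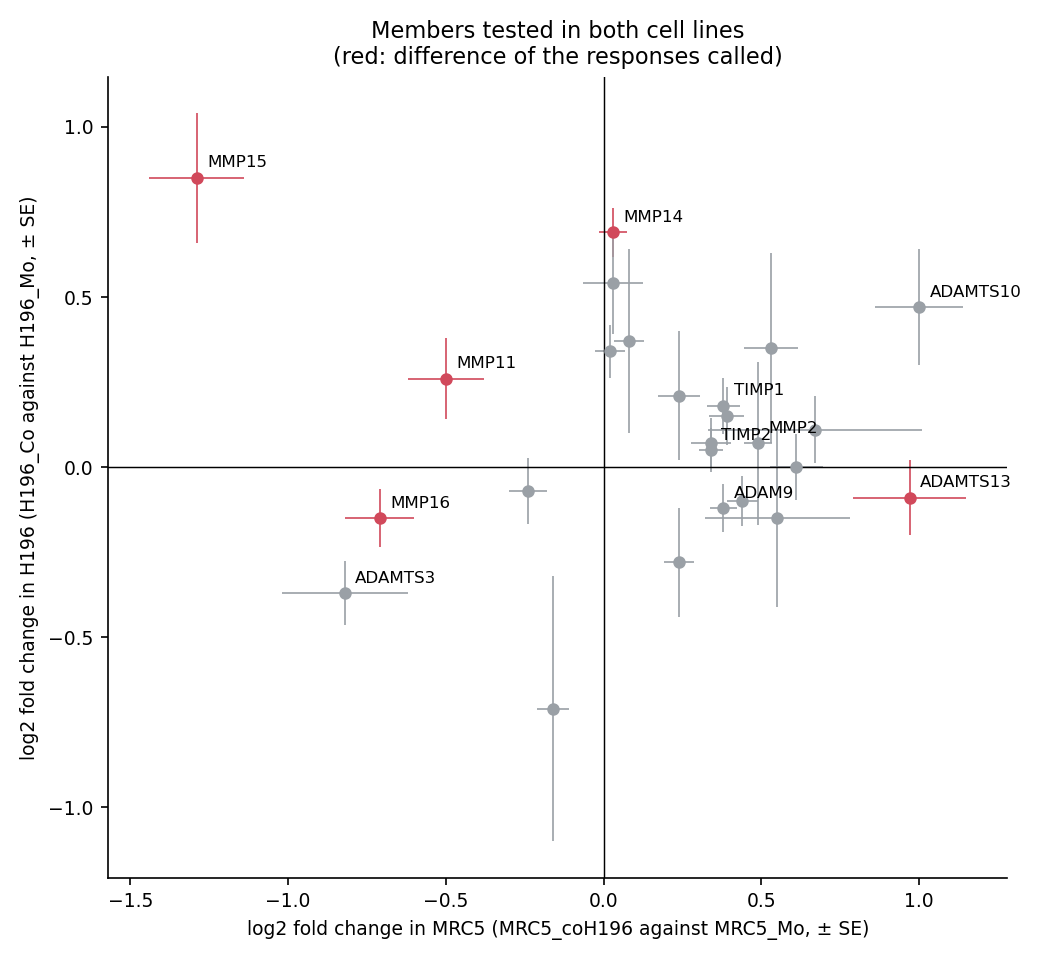
Log2FCs of the 25 members tested in both lines, in MRC5 cells cultured with H196 (x axis) and in H196 cells cultured with MRC5 (y axis), with standard errors. Red points are the 5 members plotted whose difference between the lines was called, with MMP15 at upper left (-1.29 and 0.85) and MMP14 near the vertical axis (0.03 and 0.69).

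Summed over the members as FPKM, TIMPs exceeded proteases in every library, whereas on CPM, which counts longer transcripts more, the mean log2 ratio of proteases to TIMPs was 0.73 to 1.46 in the 5 groups. The sum of all MMPs, ADAMs and ADAMTSs was 1055 to 1090 FPKM in MRC5_Mo, 1108 to 1126 FPKM in MRC5_coH69 and 1122 to 1156 FPKM in MRC5_coH196 cells. The 4 TIMPs summed to 1891 ± 67.7, 1972 ± 45.9 and 2186 ± 106 FPKM (SD, n = 3). The log2 ratio of proteases to TIMPs was -0.85, -0.82 and -0.79 in MRC5_Mo, -0.84, -0.84 and -0.79 in MRC5_coH69 and -1.0, -0.86 and -0.96 in MRC5_coH196 libraries. The MRC5_coH196 libraries thus lay below the others, the nearest at -0.86 against -0.85. This was not tested, as the sum rests on few genes, with TIMP1 at 77.3% to 79.8% of the TIMP sum and MMP2 at 20.6% to 25.3% of the protease sum. The sums are of mRNA and include ADAMs without protease activity, so the ratio is no measure of inhibition.

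In H196 cells the protease sum was 252.5 to 262.3 FPKM in H196_Mo and 252.6 to 283.5 FPKM in H196_Co cells, and the TIMP sum 401.3 to 466.2 and 432.4 to 480.7 FPKM. The groups overlapped in both sums and in the log2 ratio, which was -0.76 ± 0.13 and -0.80 ± 0.17 (SD, n = 3). The MMPs alone did not overlap, with 50.3 to 52.3 FPKM in H196_Mo and 66.2 to 76.3 FPKM in H196_Co cells, and MMP14 made up most of that sum. ADAMs were the largest protease family in H196 cells with 192 ± 5.27 FPKM alone, while MMPs were the largest in MRC5 cells with 581 ± 5.22 FPKM alone.

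**Figure D5:**
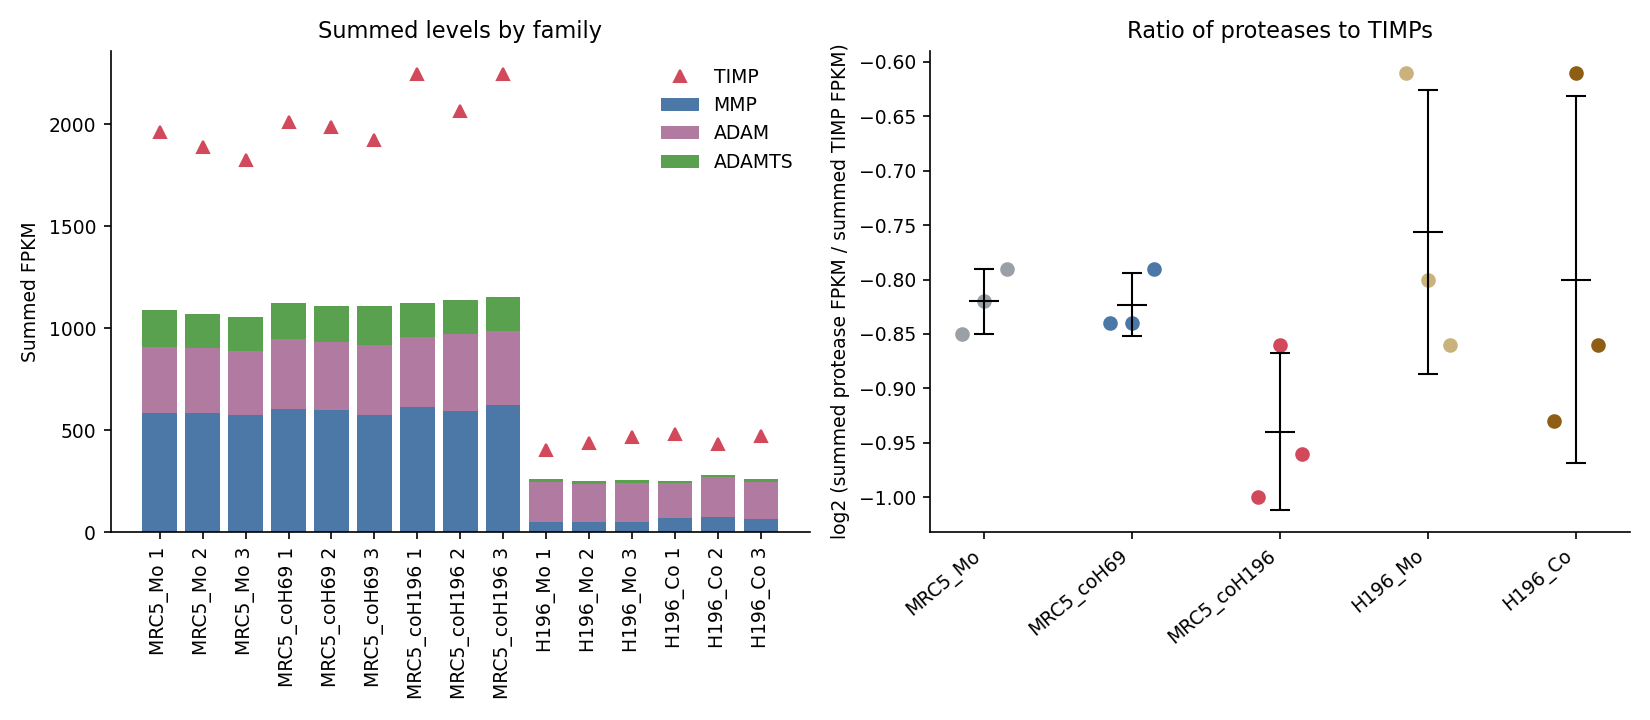
Left, summed FPKM of MMPs, ADAMs and ADAMTSs (stacked bars) and of TIMPs (triangles) in each library. Right, log2 ratio of summed proteases to TIMPs per library (points) with the mean and SD per group, which is below 0 in all 15 libraries and reaches -1.0 in MRC5_coH196 cells.

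Genes that act on or beside these enzymes were taken from lists of their known roles. The list counts are of MRC5_coH196 against MRC5_Mo cells, where 17.2% of all genes were called higher and 14.7% lower, and each list is short. Of 5 tested activating proteases, 1 was higher and 2 lower in MRC5_coH196 against MRC5_Mo cells. PLAT, the tissue plasminogen activator, rose from 42 ± 2.92 to 113 ± 3.96 FPKM (log2FC 1.61, SE 0.052, adjusted p = 4.98e-19). PLAU, urokinase, fell from 305 ± 0.653 to 126 ± 3.46 FPKM (log2FC -1.10, SE 0.042, adjusted p = 1.59e-17). PCSK7, a proprotein convertase, had a log2FC of -0.88 (adjusted p = 1.96e-13).

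Of 5 tested genes for other inhibitors and clearance, 3 were higher in MRC5_coH196 cells and 0 lower, where 17.2% and 14.7% of all genes were. RECK, a membrane-anchored MMP inhibitor, had 45.9, 49.5 and 45.4 against 32.2, 31.8 and 30.0 FPKM and a log2FC of 0.67 (SE 0.047, adjusted p = 2.79e-12). LRP1, the endocytic receptor that clears proteases and their complexes, rose from 95.5 ± 3.43 to 135 ± 3.51 FPKM (log2FC 0.68, adjusted p = 8.59e-13). SPOCK1, a secreted proteoglycan, had a log2FC of 0.59 (adjusted p = 6.98e-10). Of 5 tested ADAMTS-like genes, which lack the protease domain, 4 were higher and 0 lower, against the same 17.2% and 14.7%. ADAMTSL4 had 28.4 ± 0.615 against 10.5 ± 0.549 FPKM (log2FC 1.60, SE 0.053, adjusted p = 8.23e-19), ADAMTSL5 had 0.75 (adjusted p = 4.96e-09) and THSD4 had 0.68 (adjusted p = 9.39e-13).

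Of 8 tested ADAM partners, 2 were lower in MRC5_coH196 cells and 0 higher, where 14.7% and 17.2% of all genes were. FRMD8, which stabilises the complex of ADAM17 with iRhom proteins, had 8.05, 6.72 and 6.42 against 11.7, 12.7 and 11.9 FPKM and a log2FC of -0.60 (adjusted p = 4.31e-08). It was also lower in H196_Co than in H196_Mo cells, with 12 ± 1.15 against 20.3 ± 1.66 FPKM (log2FC -0.68, SE 0.087, adjusted p = 1.29e-05). There 1 of 8 tested partners was called lower and 0 higher, where 0.601% and 3.26% of all genes were. TSPAN10, a tetraspanin that guides ADAM10, had -0.68 (adjusted p = 5.89e-05) in MRC5_coH196 cells. From a list of astacin metalloproteinases and related genes, BMP1 and PCOLCE were tested in MRC5 cells. Neither was called in MRC5_coH196 against MRC5_Mo cells.

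Of the 11 AP-1 and ETS factors, whose families include regulators of MMP genes, 6 were higher and 1 lower in MRC5_coH196 against MRC5_Mo cells, where 17.2% and 14.7% of all genes were. ETS1 rose from 24.6 ± 0.635 to 63.2 ± 3.66 FPKM (log2FC 1.53, SE 0.049, adjusted p = 3.46e-19). JUN rose from 73.1 ± 3.84 to 135 ± 5.27 FPKM (log2FC 1.06, SE 0.048, adjusted p = 5.38e-16), and in H196 cells from 18.5 ± 0.635 to 35.0 ± 1.71 FPKM (log2FC 1.0, SE 0.073, adjusted p = 5.66e-09). FOSL1 rose in H196_Co cells from 173 ± 7.53 to 256 ± 5.46 FPKM (log2FC 0.65, adjusted p = 9.13e-07). In MRC5_coH196 cells it had a log2FC of 0.12 (adjusted p = 0.15). The factor called lower in MRC5_coH196 cells was FOS, with a log2FC of -0.65 (adjusted p = 0.0265). FOS had 0.61 (adjusted p = 0.000202) in H196_Co cells. In H196 cells 3 of the 11 factors were called higher and 0 lower, where 3.26% and 0.601% of all genes were.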

How the data were processed

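Levels of metalloproteinase and TIMP mRNAs were read from RNA-seq of 9 MRC5 and 6 H196 libraries. The authors cleaned reads with SOAPnuke and aligned them with HISAT and Bowtie2, and RSEM 1.3.1, HISAT2 2.1.0, Bowtie2 2.3.4.3 and GRCh38.p13 are named in the submitters' processing notes. They deposited estimated counts (expected counts), of which 93.7% were whole numbers for MRC5 and 92.1% for H196. They also deposited FPKM values, per gene length and library, and TPM values, which sum to a constant per library. The deposited comparisons between groups, with fold changes and p-values, and 15 further per-library columns were not used. Expected counts were rounded and tested in R 4.3.3 with edgeR 4.0.16 (filterByExpr, TMM, quasi-likelihood, two-sided), in 1 model per cell line and, for the lines, in 1 model over genes of both tables. Calls needed both a p of under 0.05 after Benjamini-Hochberg adjustment and a log2FC beyond 0.58 in either direction. DESeq2 1.42.0, limma 3.58.1 (log2 of FPKM plus 1 or plus 0.1), other filters and limits, a replicate block and each library left out were alternatives. Scripts were tested on simulated data. Standard errors are on the log2 scale. Ratios on few counts have exact 95% binomial intervals (scipy 1.17.1), which cover counting error only. TMM factors differed by group, with 0.916 to 0.941 in MRC5_coH196 and 1.028 to 1.046 in MRC5_Mo and MRC5_coH69 libraries. They were 0.959 to 0.990 in H196_Co and 1.015 to 1.045 in H196_Mo libraries. With 3 libraries per group, an exact permutation test of a single gene could not pass, so none was run. The genes named are the 4 TIMPs, members called within a line or for the difference between lines, the 5 most abundant per line, and at most 3 called genes of each further list. The promoters shown and the remaining genes were chosen as examples after their values were seen. The members and lists were chosen with earlier results of these data known. Protein sequences were not used here.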

Additional observations from a re-analysis of the deposited data

Results flagged for a closer look

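The following 6 members had a response to the partner that differed between MRC5 and H196 cells by the test of the difference itself (edgeR, adjusted over all genes), given as the MRC5 minus the H196 log2 fold change. ADAMTS13 had 1.04 (adjusted p = 0.00017), MMP11 had -0.79 (adjusted p = 0.000353), MMP14 had -0.68 (adjusted p = 5.81e-08) and MMP15 had -2.17 (adjusted p = 2.3e-08). MMP16 had -0.59 (adjusted p = 0.000803), where the limit was 0.58, and lost the call in 7 fits that left out 1 library. ADAMTS8 had -2.52 (adjusted p = 0.0475) on at most 5 counts in an H196 library, and lost the call in 12 such fits. Groups of 3 libraries were too small to look for single outlying libraries.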

How the results depend on the processing

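Calls of members depended mostly on the fold change limit and on the scale. Members called in MRC5_coH196 against MRC5_Mo cells numbered 15, which became 6 with a limit of 1, 36 with no limit and 4 on log2(FPKM + 1), and 15 to 17 with any 1 library left out. Against MRC5_coH69 cells the 15 became 9, 35 and 5, and 14 to 16. In MRC5_coH69 against MRC5_Mo cells the 1 call became 0 with a limit of 1, 7 with no limit, 0 on log2(FPKM + 1), 0 on log2(FPKM + 0.1), and 0 to 1 with a library left out. In H196 cells the 2 calls became 0, 5 and 1, and 2 to 3. Between the lines 36 calls of 41 members tested became 19 of 23 when at least 10 counts were asked of every library, and 35 to 37 with a library left out. The 6 differences between responses became 3, 14 and 3, and 5 to 7.

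None of the 39 called single values reversed in 679 alternatives, and 611 kept the call. Of 20 values that were not called, these turned sign. ADAM15 in MRC5_coH196 cells was -0.15 on both FPKM scales and -0.02 to 0.05 with a library left out. MMP14 there was -0.14 on both FPKM scales, and in MRC5_coH69 cells it ran from -0.04 to 0.03 with a library left out (0.00 without either of 2 MRC5_Mo libraries). In H196 cells MMP2 was -0.01 on log2(FPKM + 1) and -0.11 to 0.26 with a library left out, and TIMP2 was -0.03 on both FPKM scales. TIMP4 in MRC5_coH69 cells ran from -0.28 to 0.20 with a library left out. The log2 ratio of summed proteases to TIMPs on CPM was 0.82 in MRC5_Mo, 0.86 in MRC5_coH69, 0.73 in MRC5_coH196, 1.46 in H196_Mo and 1.40 in H196_Co cells. On FPKM, leave-one-out means of the ratio, an alternative chosen after seeing the data, ran from -0.98 to -0.71.

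With the replicate number as a block, 15, 1, 15 and 2 members were called within the lines, 35 between them and 6 for the difference, but same-numbered libraries correlated at only -0.116 to 0.081 in MRC5 and -0.151 to 0.033 in H196 cells, so the numbers do not pair the samples. Depth limits MMP12, ADAM11, ADAMTS8 and the members that were not tested, which rest on a few counts each.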
